A study of Saccharomyces cerevisiae with 4 samples.

Results

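The autophagy genes of budding yeast that carry an ATG symbol were followed in 4 cultures of Saccharomyces cerevisiae, 2 of a strain with histone H3 K4,36,79R and 2 of a wild-type strain, all at 0 h in galactose. A gene was taken when an array probe set annotated to a single gene had the symbol ATG followed by a number. No filter on signal was applied, and the probe set of highest mean signal stood for the gene. This gave 36 ATG genes of the 5656 genes that can be read this way, measured on 39 probe sets. Of the 37 ATG symbols in the RefSeq gene table, ATG44 has no such probe set and was not analysed here.

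In the H3 K4,36,79R strain, lysines 4, 36 and 79 of histone H3, which the methyltransferases Set1, Set2 and Dot1 modify, are replaced by arginine. According to the design text the wild-type H3 gene is on in galactose and is shut off only by a later move to glucose. At 0 h the H3 K4,36,79R cultures therefore still made wild-type H3 beside the mutant protein, which limits them as a model of cells without these lysines. The text does not say whether the wild-type strain has the same galactose-dependent H3 gene, and the cultures are described as in mid-log phase, with harvest at an OD600 of 0.5 to 0.7. Each group had 2 arrays, described as replicate cultures, and total RNA was read on Affymetrix arrays.

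Autophagy carries cytoplasm and organelles to the vacuole for breakdown inside a double membrane, the autophagosome. Nutrient-rich cells hold the bulk pathway low through TORC1, while a related constitutive route, the cytoplasm-to-vacuole targeting (Cvt) pathway, uses much of the same machinery to deliver vacuolar hydrolases. The Atg1 kinase complex starts the process, Atg9 vesicles and a phosphatidylinositol 3-kinase supply membrane and its lipid mark, 2 ubiquitin-like proteins, Atg8 and Atg12, are conjugated to build the membrane, and receptors select cargo. In yeast, transcription of several ATG genes, ATG8 among them, is repressed in rich medium and induced on starvation.

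Signals are deposited MAS5 intensities on a linear scale, 1 value per probe set. Differences are H3 K4,36,79R minus wild type on the log2(signal + 2) scale, after each array was centred on its median gene, so 1 unit is a 2-fold change and low signals give understated differences. Tests are from limma over all 5656 genes, with a Benjamini-Hochberg adjusted p of 0.05 as the threshold. Across genes, the Spearman coefficient between replicates was 0.986 in H3 K4,36,79R and 0.971 in wild type. Over all genes the median gap between replicates was 0.15 in H3 K4,36,79R and 0.29 in wild type on the log2 scale. Of all genes, 2 passed the threshold, both higher in H3 K4,36,79R: the selection marker gene URA3, at 594 and 643 in H3 K4,36,79R against 14.1 and 14.6 in wild type, and the stress gene SIP18. The galactose gene GAL1 was read at 1058 and 1263 in H3 K4,36,79R and at 1454 and 1424 in wild type, and the mating-type a pheromone gene MFA1 at 354 and 344 in H3 K4,36,79R and at 420 and 400 in wild type. Both read far above background on all 4 arrays.

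All 4 arrays gave low to moderate ATG signals. Over the 36 genes, signals ran between 2.18 and 199.7, with a median of 37.7, on H3 K4,36,79R replicate 1 and between 2.59 and 248, with a median of 47.4, on replicate 2. On the wild-type arrays they ran between 1.3 and 179, with a median of 38.9, on replicate 1 and between 2.40 and 193, with a median of 35.6, on replicate 2. A mean signal of 32.1 marks the lowest 25% of all genes, and 15 of the 36 ATG genes lay under it. Those 15 were near the bottom of the scale, where a small change in signal is hard to read. Signals of different probe sets depend on the probes as well as on the transcript, so genes are not ranked against each other here.

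**Figure D1:**
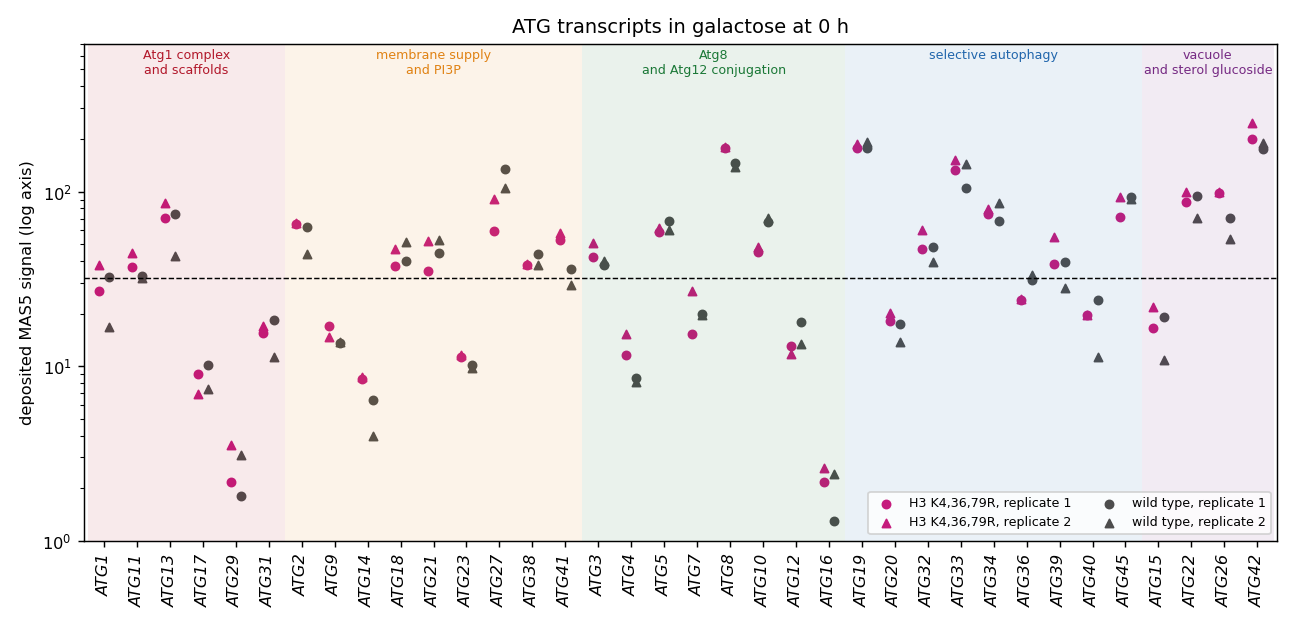
Deposited MAS5 signal (log axis) of each of the 36 ATG genes, grouped by role, with H3 K4,36,79R to the left and wild type to the right of each tick. Circles are replicate 1 and triangles replicate 2, and the dashed line at 32.1 marks the lowest 25% of all genes; 15 ATG genes have a mean below it. The points of both strains lie close together for most genes.

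No ATG gene passed the test between the strains. In limma 0 of 36 reached the threshold, where 0.0354% of all genes did, and the smallest adjusted p was 0.311. At an unadjusted p under 0.05 there were 5 ATG genes higher in H3 K4,36,79R (ATG41, ATG26, ATG4, ATG14 and ATG8) and 1 lower (ATG27). That is 13.9% and 2.78% of the ATG genes, beside 4.81% and 3.5% of all genes, or 6 genes (16.7%) beside 8.31% in both directions. A fit without some array leaves 1 array in a group, so this count is not compared across such fits. In them the difference ran between 0.74 and 0.90 for ATG41, 0.63 and 0.90 for ATG26 and 0.56 and 0.77 for ATG4. It ran between 0.48 and 0.85 for ATG14, 0.35 and 0.48 for ATG8 and -0.83 and -0.36 for ATG27. Scaling moved the count of 6 genes. With all 4 arrays it was 4 (11.1%, beside 8.8% of all genes) without centring. With quantile normalisation it was 8 (22.2%, beside 9.74%), and with cyclic loess 8 (22.2%, beside 9.51%). Without centring ATG8, ATG4 and ATG14 were not among them, at unadjusted limma p of 0.096, 0.068 and 0.077. Fitted folds, H3 K4,36,79R over wild type, ran between 0.663 and 1.77.

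The fitted differences lay mostly on the same side of 0. For 28 of the 36 genes (77.8%) the difference was above 0, beside 48.4% of all genes, and the median was 0.28, beside -0.01 over all genes. Without centring 25 differences were above 0, with a median of 0.19, and with quantile normalisation or cyclic loess 27 were, with medians of 0.22 and 0.23. Among all alternatives, ATG5, ATG7, ATG17, ATG18, ATG19, ATG21, ATG29, ATG31, ATG34, ATG38, ATG40 and ATG45 took either sign, and the other 24 genes took a single one. Both H3 K4,36,79R arrays stood above both wild-type arrays for 18 ATG genes (50%), beside 20.9% of all genes, and below them for 3 (8.33%), beside 18.7%. In either direction the strains did not overlap for 21 ATG genes (58.3%), beside 39.6% of all genes. On deposited signals, before centring, these counts were 12 (33.3%, beside 11.1% of all genes) and 4 (11.1%, beside 29.5%). The deposited H3 K4,36,79R arrays were lower as a whole, with trimmed means of 105 and 120 against 125 and 125 in wild type. Uncentred values carry that offset, so they are no neutral check on scaling. The median was 0.29 for the 21 brighter genes and 0.26 for the 15 dim ones, while all genes above and below the same mark had medians of -0.02 and 0.06. These are descriptions with no test, because the genes of a family are not replicates. In bulk RNA a change in some cells and a smaller change in all of them cannot be told apart.

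The pattern was present on each array. Relative to each gene's mean over the 4 arrays, the median ATG gene stood at 0.11 and 0.15 on the H3 K4,36,79R arrays and at -0.11 and -0.08 on the wild-type arrays. The same medians over all genes were 0.00 and 0.01 on the H3 K4,36,79R arrays and -0.02 and 0.03 on the wild-type arrays. For the Atg1 complex and its scaffolds, wild-type replicate 1 stood at 0.09, beside 0.13 and 0.25 in H3 K4,36,79R. For selective autophagy, wild-type replicate 2 stood at 0.08, beside 0.08 and 0.09 in H3 K4,36,79R. In the other role groups both wild-type medians were negative. The deviations of a gene balance out over the 4 arrays, so they are not separate from its fitted difference. Single genes scattered widely around the ATG medians: the median gap between replicates was 0.13 in H3 K4,36,79R and 0.25 in wild type, and the widest were 0.60 and 0.85. Leaving out wild-type replicate 1 put the ATG median at 0.22, and leaving out wild-type replicate 2 at 0.22 as well. For single genes 1 array often decided the size: 24 of the 36 differences moved by over 1.5 times when some array was left out. The 12 that did not were ATG3, ATG4, ATG8, ATG10, ATG11, ATG14, ATG20, ATG23, ATG26, ATG32, ATG41 and ATG42.

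**Figure D2:**
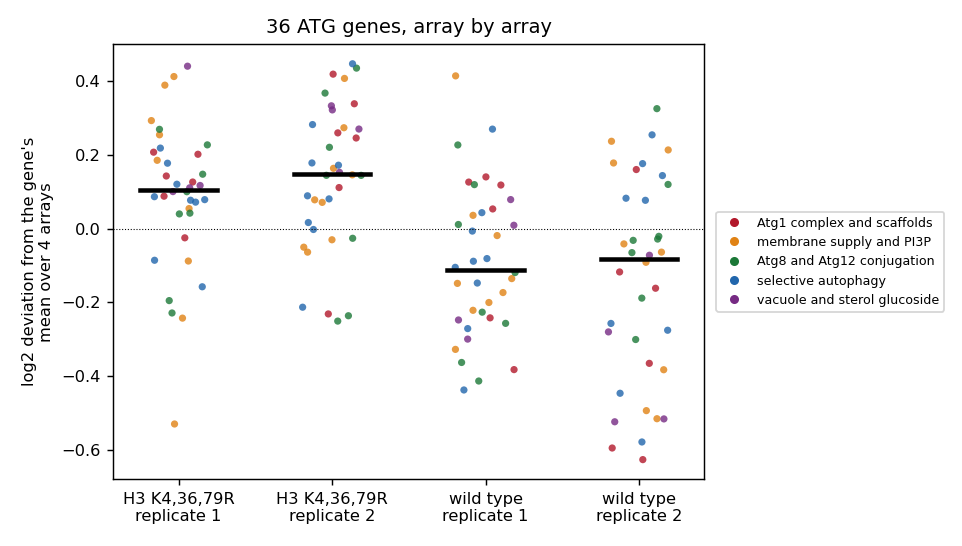
Log2 deviation of each ATG gene from its own mean over the 4 arrays (y axis), for each array (x axis), with black bars at the median over 36 genes. The bars stand at 0.11 and 0.15 on the H3 K4,36,79R arrays and at -0.11 and -0.08 on the wild-type arrays, and the points of all 4 arrays overlap.

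Among the genes of the Atg1 complex and its scaffolds, 0 of 6 passed the test, 5 had a difference above 0 and the median was 0.32. Leaving out wild-type replicate 2 lowered that median to 0.18, with 4 of 6 above 0. ATG1 (YGL180W), the kinase that starts autophagy, gave signals of 26.8 and 37.8 in H3 K4,36,79R, against 32.2 and 16.8 in wild type. The strains overlapped, and wild-type replicate 2 alone was low. The difference was 0.51 (SE 0.30, 95% interval -0.17 to 1.19, limma adjusted p = 0.686). Leaving out wild-type replicate 1 gave 0.88, and leaving out wild-type replicate 2 gave 0.14.

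ATG11 (YPR049C), the scaffold that links Atg1 to selective cargo, was read at 36.9 and 44.4 in H3 K4,36,79R and at 32.7 and 31.8 in wild type. Both H3 K4,36,79R arrays were above both wild-type arrays, by 0.40 (SE 0.21, limma adjusted p = 0.639). ATG13, the Atg1 regulator that TORC1 phosphorylates, differed by 0.54, on 70.7 and 86.0 in H3 K4,36,79R against 74.4 and 42.9 in wild type, so here too the second wild-type array was the low one. The bulk-autophagy scaffold genes ATG17, ATG29 and ATG31 differed by -0.02, 0.22 and 0.24, all at mean signals in the lowest 25% of genes.

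Of the genes for membrane supply and its lipid mark, 0 of 9 passed the test, and this group held both the widest positive and the widest negative ATG difference. Its median was 0.26, with 6 differences above 0. ATG41 (YPL250C), whose product works with Atg9 and is needed for full autophagy, gave 52.5 and 57.8 in H3 K4,36,79R, against 36.0 and 29.2 in wild type. The strains were well apart in these 4 values. The difference was 0.82 (SE 0.20, 95% interval 0.35 to 1.29, 1.77-fold, limma adjusted p = 0.311, unadjusted 0.00367).

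ATG27 (YJL178C), a membrane protein of Atg9 transport, went the other way, with 59.2 and 91.1 in H3 K4,36,79R against 135 and 105 in wild type. Both H3 K4,36,79R values lay below both wild-type values. The difference was -0.59 (SE 0.21, 95% interval -1.08 to -0.10, limma adjusted p = 0.506), and it was -0.36 without H3 K4,36,79R replicate 1. ATG23, which acts with Atg27 in moving Atg9, differed by 0.26.

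ATG9 (YDL149W), the transmembrane lipid scramblase on the seed vesicles, gave signals of 16.9 and 14.6 in H3 K4,36,79R and 13.6 and 13.8 in wild type. The values were dim and close together, and the difference was 0.26 (SE 0.25, limma adjusted p = 0.807). It was 0.10 without H3 K4,36,79R replicate 1 and 0.43 without H3 K4,36,79R replicate 2. ATG2, a lipid transfer protein gene that works next to Atg9, differed by 0.40. ATG18 and ATG21, which encode proteins that bind phosphatidylinositol 3-phosphate, differed by -0.02 and -0.08.

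ATG14 (YBR128C) encodes the subunit that directs the phosphatidylinositol 3-kinase to autophagy. It was read at 8.47 and 8.64 in H3 K4,36,79R, against 6.4 and 4.0 in wild type, far under the mark of the lowest 25% of genes. The difference was 0.66 (SE 0.26, 95% interval 0.07 to 1.25, limma adjusted p = 0.537). ATG38, another subunit gene of the same kinase complex, differed by 0.00.

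In the 2 conjugation systems 0 of 8 genes passed the test, with 6 differences above 0 and a median of 0.22. ATG8 (YBL078C) encodes the ubiquitin-like protein that is joined to phosphatidylethanolamine on the autophagosome. Its signals were 177 and 179 in H3 K4,36,79R, against 146 and 138 in wild type. Both pairs of replicates were tight, and the strains did not overlap. The difference was 0.41 (SE 0.16, 95% interval 0.04 to 0.79, 1.33-fold, limma adjusted p = 0.537).

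ATG4 (YNL223W), the protease gene that matures Atg8 and releases it from lipid, was dim, at 11.6 and 15.3 in H3 K4,36,79R and 8.50 and 8.10 in wild type. It stood higher on both H3 K4,36,79R arrays, by 0.66 (SE 0.24, limma adjusted p = 0.514). The E2 enzyme genes of the 2 systems had opposite signs. ATG3, which transfers Atg8, differed by 0.32, and ATG10, which transfers Atg12, by -0.45, on 45.3 and 48.1 in H3 K4,36,79R against 66.5 and 70.8 in wild type. ATG10 had a limma adjusted p of 0.604. ATG7, the E1 shared by both systems, differed by 0.14. The remaining conjugation genes were ATG12 (-0.20), its acceptor ATG5 (0.02) and the Atg5 partner ATG16 (0.29), the last with signals between 1.3 and 2.59 on all 4 arrays.

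Among the genes of selective autophagy 0 of 9 passed the test, 7 had a difference above 0 and the median was 0.29. That median was 0.00 without wild-type replicate 1. ATG19 (YOL082W), the receptor of the Cvt pathway, gave 179 and 187 in H3 K4,36,79R and 179 and 193 in wild type. These values overlapped, with a difference of 0.07 (SE 0.17, 95% interval -0.32 to 0.46, limma adjusted p = 0.943), whose sign turned without centring, with the mean of its probe sets and without wild-type replicate 1. Its second probe set read between 0.768 and 2.60 on all 4 arrays, near background. ATG34, a relative of ATG19 that binds alpha-mannosidase, differed by 0.09.

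ATG32 (YIL146C), the mitophagy receptor gene, was read at 47.1 and 60.2 in H3 K4,36,79R, against 48.3 and 39.7 in wild type. The deposited values overlapped and the centred ones did not. The difference was 0.36 (SE 0.20, 95% interval -0.11 to 0.83, limma adjusted p = 0.676). ATG33, of the mitochondrial outer membrane, differed by 0.29, a value that became 0.0023 when wild-type replicate 1 was left out and 0.58 when wild-type replicate 2 was. Of the other receptor genes, ATG39 for the nuclear envelope differed by 0.53, ATG40 for the endoplasmic reticulum by 0.31 and ATG36 for peroxisomes by -0.30. The sorting nexin gene ATG20 differed by 0.36 and ATG45 by -0.08.

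The 4 genes that act in the vacuole or on sterols all had differences above 0, with a median of 0.41, and 0 of them passed the test. For ATG15 this held only on its brightest probe set. ATG26 (YLR189C), a sterol glucosyltransferase gene, gave 98.1 and 99.4 in H3 K4,36,79R, against 70.3 and 53.3 in wild type. The strains did not overlap. The difference was 0.76 (SE 0.19, 95% interval 0.33 to 1.20, 1.70-fold, limma adjusted p = 0.311, unadjusted 0.00365). The vacuolar carboxypeptidase gene ATG42 differed by 0.37 and the amino acid exporter gene ATG22 by 0.27.

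ATG15, the lipase gene that opens autophagic bodies, differed by 0.44 on its brightest probe set, while its other 2 probe sets gave -0.06 and -0.12. All 3 read at mean signals between 11.6 and 17.1, so they do not settle a direction for this gene.

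**Figure D3:**
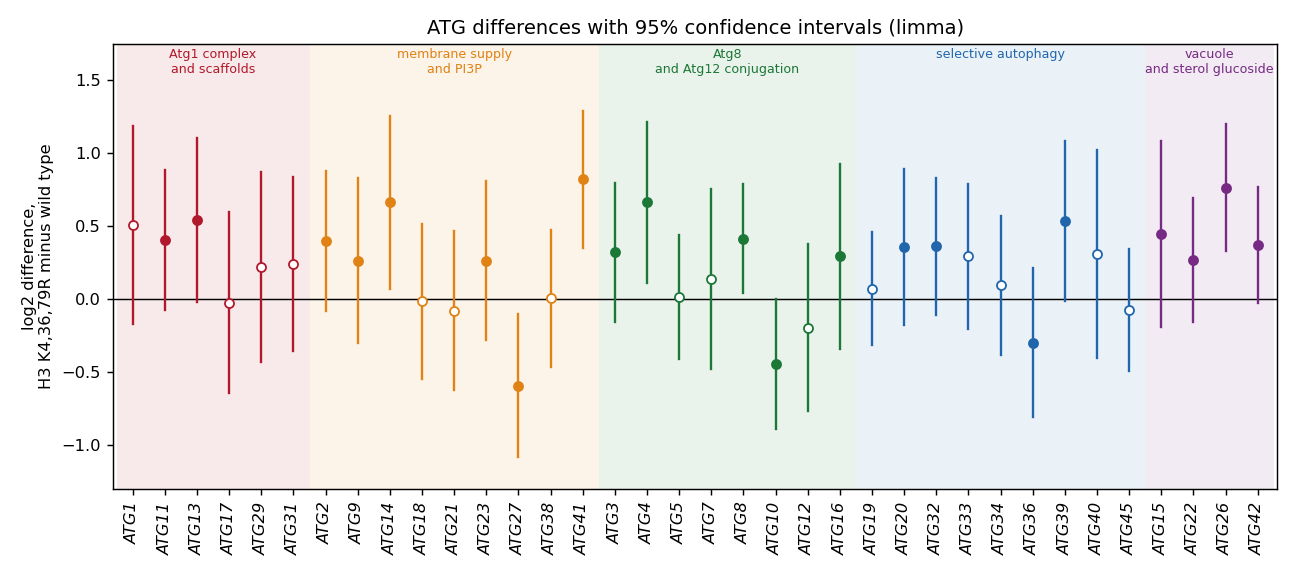
Log2 difference, H3 K4,36,79R minus wild type (y axis), of each ATG gene with its 95% confidence interval from limma, grouped by role. Filled points are genes whose 4 centred values do not overlap between strains (18 above 0 and 3 below). The intervals of ATG41, ATG26, ATG4, ATG14 and ATG8 lie above 0 and that of ATG27 below it before adjustment, and 0 of 36 genes passed the adjusted threshold.

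**Figure D4:**
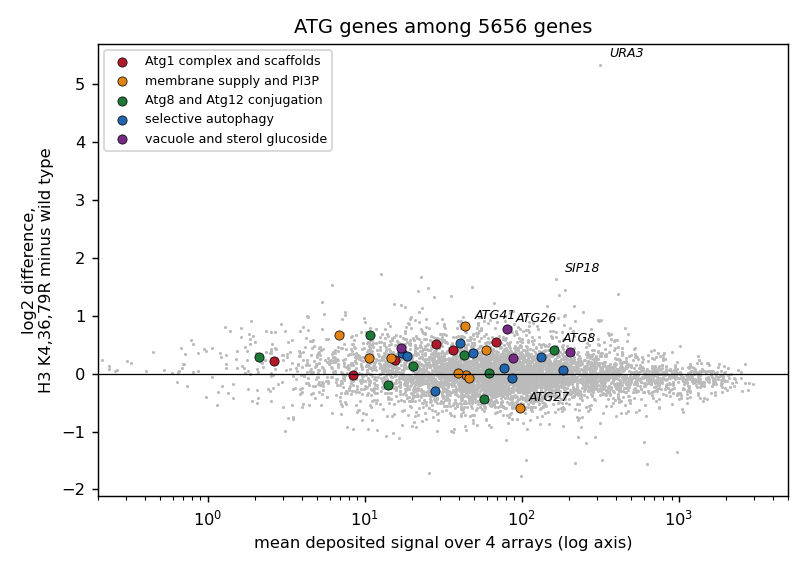
Log2 difference, H3 K4,36,79R minus wild type (y axis), against mean deposited signal over 4 arrays (log x axis) for all 5656 genes in grey, with the 36 ATG genes coloured by role. The ATG genes lie within the spread of the other genes, between -0.59 and 0.82, far from URA3.

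Genes that serve or regulate autophagy under other names, and genes that respond to nitrogen supply, were listed by role, to set beside the ATG genes. Of 19 measured autophagy factors without an ATG symbol 0 passed the test, and the median was 0.08. A difference above 0 was found for 14, beside 48.4% of all genes, and for 9 without centring. These include VPS30, the Atg6 subunit of the kinase complex (0.17), and SNX4, also known as Atg24 (0.16). The highest and lowest among the brighter genes were the kinase complex gene VPS15 (0.35) and the vacuolar anchor gene VAC8 (0.31), and the Rab GTPase gene YPT1 (-0.17) and the actin-related gene ARP2 (-0.04). Dimmer genes lay farther out: SNX41 (0.88, SE 0.31, limma adjusted p = 0.497) and VPS38 (0.42) above these, and TAX4 (-0.19) below. The SNX41 difference was wider than that of any ATG gene.

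Cvt cargo and vacuolar hydrolase genes had 0 of 11 past the test, a median of -0.01 and 5 differences above 0. This list turned with the array left out: its median was 0.09 without H3 K4,36,79R replicate 1, -0.12 without wild-type replicate 1 and, with 9 genes above 0, 0.19 without wild-type replicate 2. APE1, the aminopeptidase that is the main Cvt cargo, differed by -0.23 and the dipeptidyl aminopeptidase gene DAP2 by -0.21. At the other end, the proteinase B gene PRB1 was read at 375 and 521 in H3 K4,36,79R, against 297 and 290 in wild type, a difference of 0.68 (SE 0.19, limma adjusted p = 0.384). The carboxypeptidase gene CPS1 differed by 1.08 (SE 0.38, limma adjusted p = 0.497), on 109 and 117 in H3 K4,36,79R against 94.4 and 32.7 in wild type, so wild-type replicate 2 alone was far down.

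The vacuole docking and fusion list had 0 of 16 genes past the test and a median of 0.16. Of its differences 14 were above 0, beside 48.4% of all genes, and 10 were without centring. CCZ1 (0.42) and the SNARE gene VTI1 (0.31) were highest among the brighter genes, and SEC17 (-0.35) and the Rab gene YPT7 (-0.02) lowest. The dimmer PEP3 (0.44) and VPS41 (0.43) lay slightly above CCZ1. Upstream signalling had 0 of 24 past the test and a median of 0.01. The TORC1 subunit gene KOG1 differed by 0.36 and the kinase gene RIM15 by 0.29, against the cyclin-dependent kinase gene PHO85 at -0.50 and the phosphatase gene SIT4 at -0.42.

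Reported regulators of ATG transcripts had 0 of 22 past the test and a median of 0.07. UME6, which recruits a histone deacetylase to ATG8, differed by 0.00, and RPH1, a histone H3 lysine 36 demethylase reported to repress ATG genes, by 0.11. The highest brighter genes were DHH1 (0.61), an RNA helicase of mRNA decay, and SIN3 (0.42), and the lowest were GCN4 (-0.19) and PHO23 (-0.12). Below these lay the dimmer TYE7 (-0.54) and FYV5 (-0.20). Of 19 genes under nitrogen catabolite repression, which are switched on when good nitrogen sources run out, 0 passed the test and 10 differed above 0, with a median of 0.05. Among the brighter genes GDH2 (0.40) and the amino acid permease gene GAP1 (0.34) were highest, and UGA1 (-0.20) and PUT2 (-0.19) lowest. The dimmer DAL4 (0.39) and DAL2 (-0.63) lay as far out or farther. At an unadjusted p under 0.05, beside 8.31% of all genes, there were 1 of 19 other autophagy factors, 2 of 11 cargo and hydrolase genes, 0 of 16 fusion genes, 1 of 24 signalling genes, 2 of 22 regulators and 2 of 19 nitrogen genes. Without centring, the medians of other autophagy factors (-0.01), cargo and hydrolase genes (-0.10), signalling (-0.08), ATG regulators (-0.02) and nitrogen catabolite repression (-0.04) lay below 0. The uncentred median over all genes was -0.10. Without any one array the medians ran between 0.01 and 0.15 for other autophagy factors, 0.15 and 0.23 for fusion, 0.02 and 0.055 for signalling, 0.03 and 0.11 for regulators and 0.00 and 0.08 for nitrogen genes.

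**Figure D5:**
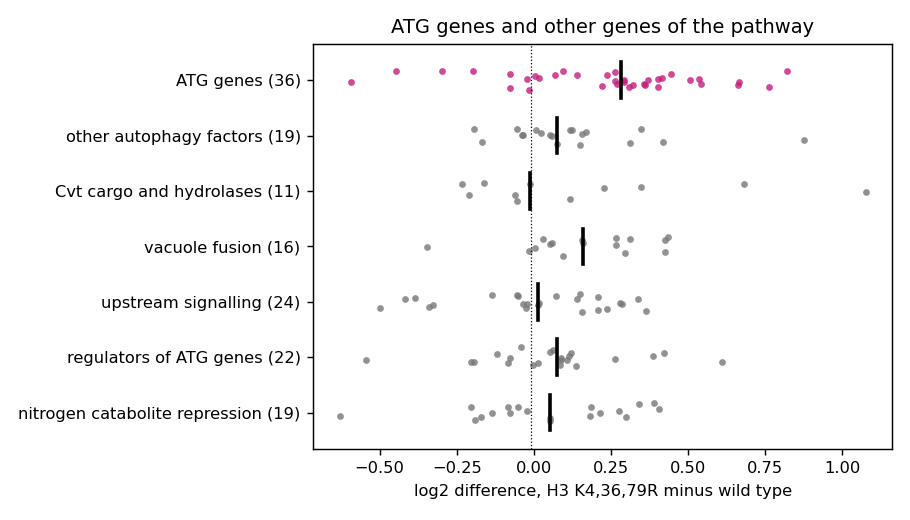
Log2 difference, H3 K4,36,79R minus wild type (x axis), of the ATG genes and of 6 lists of other genes (y axis, number measured in brackets), with black bars at each median and a dotted line at the median of all genes (-0.01). The nitrogen list holds markers of nitrogen supply, and DAL80 is in both that list and the regulator list. The ATG median is 0.28 and those of the other lists lie between -0.01 and 0.16, and the points of all lists overlap.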

How the data were processed

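The deposited intensities, 1 signal per probe set and array, are named as MAS5 output in the submitters' processing notes. Wild-type signals stop at 1 decimal and H3 K4,36,79R signals do not, as for ATG16 at 1.3 and 2.4 against 2.18102 and 2.59097. The H3 K4,36,79R arrays thus appear to have been rescaled after MAS5, by factors that are not given. Version, scaling target and detection calls: not given in the sources used here. The trimmed mean signal was 105 and 120 on the H3 K4,36,79R arrays and 125 and 125 on the wild-type arrays. The platform annotation pairs 6504 of 9335 probe sets with 1 gene, and all 5656 genes matched RefSeq assembly R64 by gene ID. No coordinates or sequences are printed.

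The 10th percentile of signal, 2, was added as a pseudocount before log2, and each array was centred on its median gene. Uncentred, the median difference over all genes was -0.10, and every result given without centring carries that offset. limma 3.58.1 in R 4.3.3 (lmFit, eBayes with intensity trend, two-sided, 2 residual and 6.15 prior degrees of freedom) was run on all 4 arrays. A check of the code on simulated data used added changes larger than any ATG difference, so it does not bear on differences of that size. The design text speaks of replicate cultures, and 2 arrays per group limit the precision.

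ATG genes and lists were chosen with earlier results of these data known. Named in full were ATG1, ATG8, ATG9, ATG11, ATG14, ATG19, ATG32 and the 5 ATG genes of smallest unadjusted p, of which ATG14 is one, and for the other lists the 2 highest and 2 lowest genes above the lowest 25% of mean signal; further genes were named after their values were seen. Alternatives covered normalisation, pseudocount, signal filter, probe set choice, variance model, a replicate block and leaving out each array. Figures were drawn with matplotlib 3.10.9.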

Additional observations from a re-analysis of the deposited data

How the results depend on the processing

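The count of ATG genes past the threshold was 0 in 13 of 14 alternatives, with 145 genes called in all and 2 of them ATG genes, ATG26 and ATG41, in the fit with the replicate number as a block; that fit also called 1 gene each among other autophagy factors and hydrolases. The labels do not say whether same-numbered cultures were handled together. Deviations of same-numbered arrays correlated at 0.04 over genes, which cannot settle it. The block fit also leaves fewer residual degrees of freedom than the reported one. All genes called, 2 in the reported fit, numbered 8 without centring, 13 with quantile normalisation, 9 with cyclic loess, 9 with a pseudocount of 9, 8 with the lowest 25% or the lowest 50% of signal left out, 6 with the mean of probe sets, 1 without an intensity trend, and 1 to 17 without any one array. The ATG median was 0.19 without centring, 0.22 with quantile normalisation, 0.23 with cyclic loess, 0.31 without a pseudocount, 0.22 with a pseudocount of 9, and 0.22 to 0.31 without any one array. By role, the initiation median was 0.18 to 0.42 without an array; the conjugation median was 0.12, 0.11 and 0.13 under those 3 scalings, 0.43 with the lowest 50% left out and 0.063 to 0.32 without an array; the membrane median was 0.17, 0.15 and 0.19, then 0.19 with a pseudocount of 9, 0.0056 with the lowest 25% and -0.58 with the lowest 50% left out, where fewer genes remain, and 0.12 to 0.32 without an array. The selective median was 0.20 without centring, 0.20 and 0.10 under the 2 filters and 0.0023 to 0.26 without an array, and the vacuole median 0.31 to 0.58 without an array. ATG19 was at -0.021 without centring, -0.081 with the mean of probe sets and -0.042 to 0.18 without an array. For these medians the cause was not tested. Of 36 ATG genes, 24 kept the sign of their difference in every alternative that measured them, 20 above 0 and 4 below. Signal over background limits the 15 dim ATG genes.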
